A study of Mus musculus with 6 samples.

Results

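In sorted prostate epithelial cells, 39 of 632 listed genes were abundant in control mice and lower in mice with an E-cadherin conditional knockout. They were chosen by the values of this same contrast. Each had a control mean of at least 100 FPKM (fragments scaled for transcript length and sequencing depth, a unit inferred from the tools named) and a lower knockout mean in the deposited table. Whey acidic protein, secretoglobin and connexin genes and 16 further symbols were left out by name, which removed 9 of 48 such genes. The lower knockout level of the 39 genes is therefore a description of how they were picked and not a finding. Tests of that difference are given as descriptions only.

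RNA came from prostate tissue of C57BL/6 mice at 3 months of age, digested with collagenase and trypsin and sorted for epithelial cells. There were 3 libraries from controls, described as littermates, and 3 from conditional knockouts of the E-cadherin gene, with no treatment in either group. The sources used here do not give the promoter driving the recombinase, the sorting marker, or whether each library is 1 animal. The p-values therefore rest on library-to-library spread alone, some of which could be technical. A mark in the sample titles differs between all control and all knockout libraries, and what goes with that mark cannot be told apart from genotype.

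Prostate luminal cells are secretory: they make large amounts of protein in the endoplasmic reticulum, pass it through the Golgi and release it into the gland. Mitochondria supply the energy for this work through the respiratory chain, whose complex I is built from subunits encoded in both the nuclear and the mitochondrial genome. Ribosomes, signal recognition particle, folding enzymes and vesicle coats are the other parts of that production line. E-cadherin joins neighbouring epithelial cells at adherens junctions. The 39 genes fell into 8 functional groups by textbook role, with 5 genes of the respiratory chain and ATP synthase, 3 of other mitochondrial functions, 7 of the secretory pathway, 7 metabolic and redox enzymes, 4 membrane proteins, 5 nuclear and cytoskeletal proteins, 4 ribosomal or translation-related gene copies, and 4 long RNAs and Erdr1.

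The differences were small. The median ratio of knockout to control mean was 0.782, and 36 of the 39 ratios lay between 0.7 and 0.85. Outside that range were Erdr1 at 0.521, the long noncoding RNA Gm37223 at 0.590 and Gm11808 at 0.937. The upper end of that range lay at the edge of the listed falls. After Gm11808, the smallest falls of all listed genes had ratios of 0.839, 0.834 and 0.833. Likeness in size at that end goes with which genes were listed and is not read as a trait of the 39. For comparison, the other 143 listed genes lower in knockout had a median ratio of 0.733 over 142 finite ratios, and all listed genes had a median of 1.91 over 622. By limma on log2(FPKM + 1), with p-values adjusted over all 632 listed genes, 7 of the 39 were called lower at an adjusted p under 0.05, beside 7.28% of all listed genes called lower and 72.6% called in either direction. Every knockout library was below every control library for 20 of the 39, beside 15.7% of all listed genes, and groups were apart in either direction for 82.6%. The rule used this contrast, so nothing is read from either share. Among the other listed genes lower in knockout, 27.3% were called and 55.2% did not overlap.

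**Figure D1:**
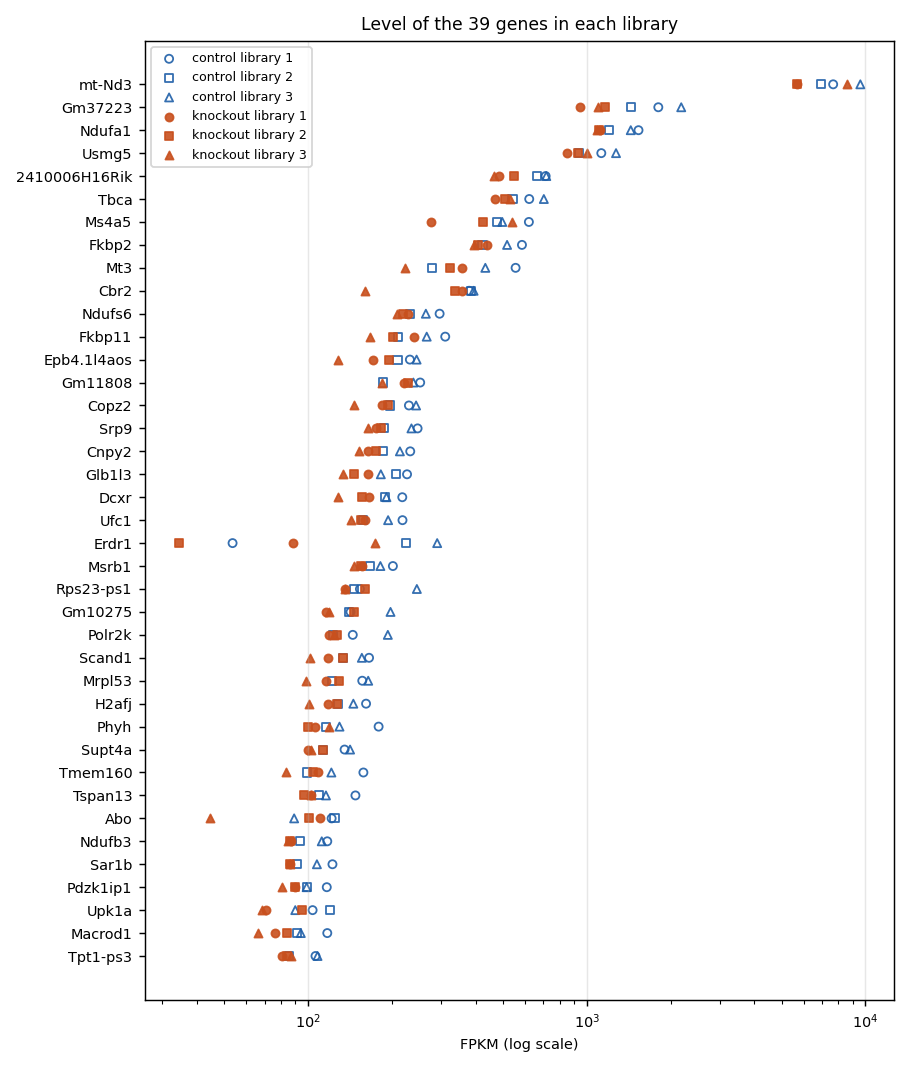
FPKM of each of the 39 genes in each of the 6 libraries, on a log axis, ordered by control mean. Open blue symbols are control and filled orange symbols knockout libraries, with the library number given by shape. Control library 2 often lies nearest the knockout libraries, and Erdr1 has the widest spread in both groups.

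The count of calls depended on single libraries. Without control library 1 it was 2, without control library 2 it was 27, and without control library 3 it was 3. Without knockout library 1, 2 or 3 it was 4, 4 and 2. Gm37223 and 2410006H16Rik were the 2 genes called in all 6 of these fits. Knockout values divided by 1.11 (0.15 on the log2 scale), which centres the gap between the smallest listed rises and falls, gave 29 calls.

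Control library 2 stood apart from the other controls on these genes. It was the lowest of the control libraries for 33 of the 39 (84.6%) and the highest for 2. Among the other listed genes lower in knockout, it was the lowest control for 50.3%. Among listed genes higher in knockout and not tied, it was the highest control for 68.9%, so its shift was not particular to the 39. Relative to each gene's control mean, the median log2 level of the 39 was 0.13 in control library 1, -0.20 in control library 2 and 0.04 in control library 3. It was -0.32, -0.27 and -0.42 in knockout libraries 1, 2 and 3. The medians of the groups did not overlap, and control library 2 was the nearest to the knockouts. Knockout library 3 was the lowest knockout library for 26 of the 39 (66.7%), beside 59.2% of the other listed genes lower in knockout and not tied. The 6 genes of the 39 whose lowest control was not library 2 were Cbr2, Glb1l3, Abo, Pdzk1ip1, Upk1a and Erdr1.

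Leukocyte, fibroblast and basal markers were higher in knockout, and the first 2 lists were also highest in control library 2 among the controls. Of 7 leukocyte markers 5 were listed (Cd74, Adgre1, Cd79a, Ptprc and Lyz2), and all 5 rose in knockout by limma. Their summed level was 175, 240.5 and 193 FPKM in control libraries 1, 2 and 3 and 424, 427 and 419.5 FPKM in the knockout libraries. Control library 2 was the highest control for 4 of the 5, and for Cd79a it was the lowest. Of 6 fibroblast markers 3 were listed and rose, with sums of 53.7, 70.5 and 50.8 FPKM in control libraries 1, 2 and 3 and 89.3 to 94.1 FPKM in knockout. RNA of the listed leukocyte and fibroblast markers was thus present in every library of the sorted cells. Cd3e and Itgam of the leukocyte list and all smooth muscle, endothelial, erythroid, neuroendocrine and seminal vesicle markers were not analysed here. The 10 luminal and 4 pan-epithelial markers were not listed either, and the latter include Cdh1, the E-cadherin gene itself. Loss of its RNA could thus not be checked here. Of these epithelial marker lists, only the basal keratins had listed genes. Of 5 basal markers 4 were listed and all 4 rose, with sums of 113, 86.2 and 84.0 FPKM in control libraries 1, 2 and 3 and 164 to 198 FPKM in knockout. The basal sum was highest in control library 1 and did not set control library 2 apart. The part of these cell types in the lower levels of the 39 genes was not tested. In RNA from many cells, fewer cells of a type and less RNA per cell cannot be told apart.

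**Figure D2:**
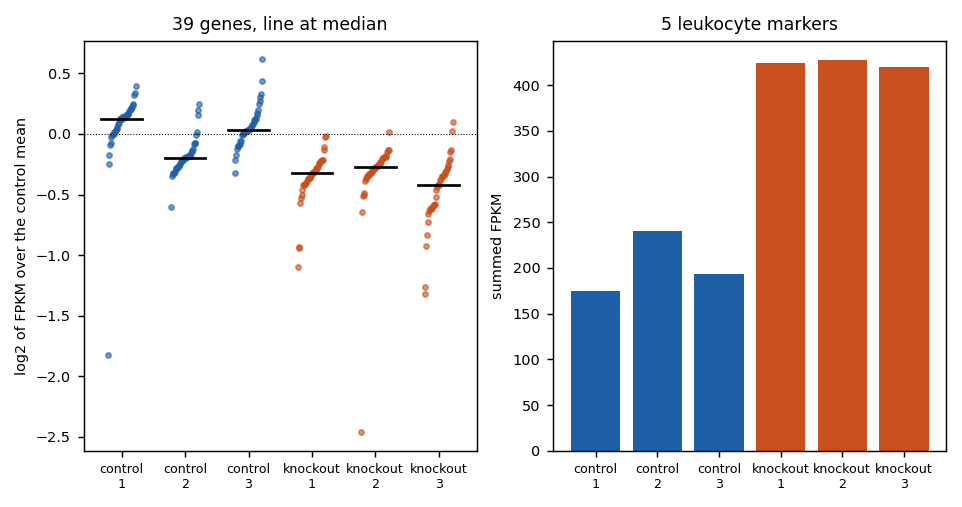
Left, log2 of each gene's FPKM over its control mean in each library, 1 point per gene and a line at the median of the 39 genes. Right, summed FPKM of the 5 listed leukocyte markers. Control library 2 has the lowest median (-0.20) and the highest marker sum (240.5 FPKM) of the controls.

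The 39 genes held 58.1%, 55.8% and 66.7% of the listed signal in control libraries 1, 2 and 3 and 43.2%, 45.8% and 48.1% in the knockout libraries. Their summed level was 20686, 17571 and 22815 FPKM in control libraries 1, 2 and 3, and 14839, 15331 and 17600 FPKM in knockout libraries 1, 2 and 3. Knockout library 3 was just above control library 2. The mitochondrial gene mt-Nd3 alone held between 16.6% and 28.0% of the listed signal of a library. Without it the sums were 13025, 10641 and 13227 FPKM in control and 9161, 9667 and 8990 FPKM in knockout, and the groups did not overlap. The listed genes are a selected set, so these shares do not describe the whole transcriptome.

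Genes of the respiratory chain had the smallest median difference of the 8 groups, 17.5% lower in knockout, and none of the 5 passed limma (adjusted p = 0.052 to 0.23). mt-Nd3, a core complex I subunit encoded by the mitochondrial genome (bases 9459 to 9806), was the most abundant gene of the table. It stood at 7661, 6929 and 9588 FPKM in control libraries 1, 2 and 3 and at 5679, 5665 and 8610 FPKM in knockout libraries 1, 2 and 3. Knockout library 3 lay inside the control range, so the groups overlapped.

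The nuclear genes of complex I were more even across knockout libraries. Ndufa1, an accessory subunit gene on chromosome X (37187588 to 37191163), was at 1535, 1199 and 1440 FPKM in control and at 1114, 1109 and 1089 FPKM in knockout. The groups did not overlap, and the knockout values were within 1.21% (coefficient of variation) while the controls varied by 12.5%. Its log2 difference was -0.33 with an SE of 0.13 (limma adjusted p = 0.052). It passed with a pseudocount of 0.1 (adjusted p = 0.0443) and without control library 2 (adjusted p = 0.00488). It did not pass without any other single library (adjusted p = 0.106 to 0.18) or without limma's trend option (adjusted p = 0.0601).

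Ndufb3, an accessory subunit of the membrane arm, was at 117, 94.1 and 112 FPKM in control and at 86.9, 86.0 and 84.9 FPKM in knockout. Its knockout spread was also narrow (coefficient of variation 1.19%), and the groups did not overlap. Ndufs6, a further accessory subunit, was at 297, 232 and 265 FPKM in control and at 228, 219 and 208 FPKM in knockout, with control library 2 just above the highest knockout library.

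Usmg5, listed in RefSeq as Atp5md, encodes a small membrane subunit associated with ATP synthase. It was at 1129, 939 and 1275 FPKM in control and at 851, 931 and 1006 FPKM in knockout. Knockout library 3 was above control library 2. Usmg5 had the third smallest difference of all listed genes lower in knockout, after Gm11808 and Tpt1-ps3.

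The other mitochondrial genes were Mrpl53, Macrod1 and Tmem160. Macrod1, an enzyme that removes ADP-ribose from proteins, was at 117, 91.8 and 94.4 FPKM in control and at 76.3, 84.4 and 66.4 FPKM in knockout, and the groups did not overlap. It passed limma with all libraries (log2 difference -0.41, SE 0.15, adjusted p = 0.046) and without control library 2, and leaving out any other single library ended the call (adjusted p = 0.0561 to 0.137). Mrpl53, a protein of the large mitochondrial ribosomal subunit, was at 157, 122 and 165 FPKM in control and at 116, 129 and 98.3 FPKM in knockout, with control library 2 below knockout library 2.

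Tmem160, a small membrane protein assigned to mitochondria, was at 158, 99.6 and 121 FPKM in control and at 109, 104 and 83.6 FPKM in knockout. Control library 2 was again inside the knockout range. Mrpl53 shares its whole principal transcript with Gm42688, an overlapping gene model on the same strand, so its reads cannot be given to either with certainty.

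All members with a matched RefSeq promoter window, whatever their functional group, were searched for sequence motifs. Windows ran from 250 bases before to 50 bases after the gene start (GRCm38.p6). The windows of Usmg5, Ndufs6 and Mrpl53 are shown because they are the mitochondrial genes whose windows held an ETS (CCGGAAG) or YY1 (AAGATGGCG) match, motifs known from promoters of respiratory genes. Capitals mark these and the NF-Y box (CCAAT), on either strand. The windows are chr19:47090598-47090897, chr13:73328433-73328732 (both minus strand) and chr6:83108858-83109157 (plus strand), and no marked matches overlap.
Usmg5: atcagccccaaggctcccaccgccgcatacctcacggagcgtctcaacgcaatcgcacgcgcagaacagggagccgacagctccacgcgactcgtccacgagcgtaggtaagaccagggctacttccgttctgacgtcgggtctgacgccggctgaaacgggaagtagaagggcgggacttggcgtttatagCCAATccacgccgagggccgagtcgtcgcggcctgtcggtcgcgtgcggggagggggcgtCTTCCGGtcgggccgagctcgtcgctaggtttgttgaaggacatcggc
Ndufs6: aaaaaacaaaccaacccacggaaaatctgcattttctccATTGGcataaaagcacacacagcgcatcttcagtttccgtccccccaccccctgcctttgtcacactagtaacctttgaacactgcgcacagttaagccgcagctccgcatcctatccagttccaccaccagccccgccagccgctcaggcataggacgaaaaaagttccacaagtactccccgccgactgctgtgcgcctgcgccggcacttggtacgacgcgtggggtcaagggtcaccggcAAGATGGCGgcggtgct
Mrpl53: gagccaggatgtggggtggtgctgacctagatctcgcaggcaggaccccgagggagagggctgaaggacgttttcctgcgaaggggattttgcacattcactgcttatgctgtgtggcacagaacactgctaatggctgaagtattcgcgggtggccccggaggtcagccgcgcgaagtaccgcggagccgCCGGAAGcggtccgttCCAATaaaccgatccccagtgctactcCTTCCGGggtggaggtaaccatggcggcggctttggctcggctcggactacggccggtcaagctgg

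A window was matched for 29 of the 39 genes, and none for Abo, Epb4.1l4aos, Erdr1, Gm10275, Gm11808, Gm37223, Polr2k, Rps23-ps1, Tpt1-ps3 and mt-Nd3. The ETS letters were in 5 of the 29 (17.2%), beside 12.3% of 16893 windows of protein-coding genes of the same length, and the YY1 letters in 1 (3.4%), beside 2.05%. The NF-Y box was in 14 (48.3%), beside 38.8%, and the GC box GGGCGG in 14 (48.3%), beside 48.5%. TATAAA was in 2 (6.9%), beside 13.1%. The NRF1 motif, the unfolded protein response element TGACGTGG and the ER stress element (the NF-Y box and CCACG with 9 bases between) were in 0 of 29, beside 1.37%, 0.716% and 0.16%. A match describes letters in the window and not binding.

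All 7 secretory pathway genes lay in a narrow range, 18.9% to 22.7% lower in knockout, and 1 passed limma. Cnpy2, a saposin-like protein of the endoplasmic reticulum (chromosome 10, 128322459 to 128327553), was at 233, 186 and 214 FPKM in control and at 164, 176 and 153 FPKM in knockout. The groups did not overlap (log2 difference -0.35, SE 0.13, limma adjusted p = 0.043). It passed as well without control library 2, and leaving out any other single library ended the call (adjusted p = 0.0728 to 0.125).

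Srp9, a protein of the signal recognition particle that brings new secretory proteins to the endoplasmic reticulum, was at 248, 187 and 235 FPKM in control and at 175, 183 and 165 FPKM in knockout. The groups were apart by a few FPKM, between control library 2 and knockout library 2. The adjusted p was 0.059 in limma and 0.00836 without control library 2. Leaving out any other single library gave an adjusted p of 0.102 to 0.151 in limma.

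Fkbp11, a prolyl isomerase that helps proteins fold in the endoplasmic reticulum, was at 311, 210.5 and 267 FPKM in control and at 240.0, 203 and 167 FPKM in knockout, so the groups overlapped. Fkbp2, of the same enzyme family, was more abundant at 586, 423 and 518 FPKM in control and 438, 406 and 394 FPKM in knockout. In both genes control library 2 was below the highest knockout library.

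Copz2, a subunit of the COPI vesicle coat, was at 230.5, 197 and 245 FPKM in control and at 185, 194 and 146 FPKM in knockout, and the groups did not overlap. Sar1b, the GTPase that starts COPII coat assembly, was at 123, 91.4 and 108 FPKM in control and at 86.3, 86.5 and 86.5 FPKM in knockout, the narrowest knockout spread of the 39 genes. Ufc1, the conjugating enzyme for the ubiquitin-like protein UFM1, was at 219, 158 and 194 FPKM in control and at 159.7, 156 and 143 FPKM in knockout. Its groups overlapped at control library 2.

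The metabolic and redox enzymes were 16.9% to 28.8% lower, and 2 of the 7 passed limma. Glb1l3, a galactosidase-like protein (chromosome 9, 26817953 to 26860890), was at 227, 208 and 183 FPKM in control and at 165, 147 and 134 FPKM in knockout, with no overlap (log2 difference -0.47, SE 0.14, limma adjusted p = 0.020). It did not pass without control library 1 or knockout library 2 or 3 (adjusted p = 0.0546 to 0.0657). Dcxr, which reduces L-xylulose and dicarbonyl compounds, was at 218, 189.7 and 191 FPKM in control and at 166, 157 and 129 FPKM in knockout (log2 difference -0.41, SE 0.14, adjusted p = 0.032). Its groups did not overlap, and it did not pass without control library 1 or 3 or knockout library 2 or 3 (adjusted p = 0.0562 to 0.097).

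Cbr2, a carbonyl reductase, is the neighbour of Dcxr on chromosome 11, on the same strand with 2207 bases between. It was at 379, 384 and 393 FPKM in control and at 358, 338 and 160.4 FPKM in knockout. The groups did not overlap, but the controls were nearly equal and knockout library 3 alone was far below the rest. The ratio of means was 0.740 with all libraries and 0.903 without knockout library 3. Abo, the glycosyltransferase gene of the ABO blood group system, had the same low library, with 122, 125 and 89.3 FPKM in control and 110.4, 101 and 44.7 FPKM in knockout. Its ratio was 0.762, and 0.944 without knockout library 3.

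Mt3, a metallothionein that binds zinc and copper, had the largest difference of this group (28.8%) with wide spread in both genotypes. It was at 556, 278 and 433 FPKM in control and at 357, 322 and 223 FPKM in knockout, and control library 2 was below knockout libraries 1 and 2. Phyh, the peroxisomal enzyme of phytanic acid breakdown, had means of 142 ± 33.2 (SD, n = 3) in control and 108 ± 9.70 FPKM in knockout, and its groups overlapped. Msrb1, a selenoprotein that repairs oxidised methionine, had means of 184 ± 17.6 and 152 ± 5.74 FPKM, with no overlap. Limma called neither (adjusted p = 0.106 and 0.077).

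**Figure D3:**
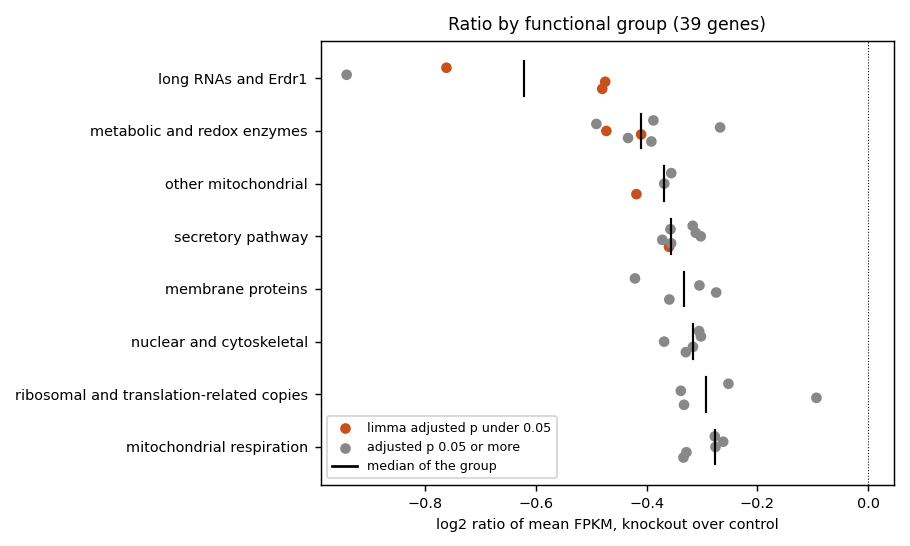
Log2 ratio of mean FPKM, knockout over control, for each of the 39 genes by functional group, with a line at each group's median. Orange points passed limma at an adjusted p under 0.05 over all 632 listed genes. The long RNAs and Erdr1 lie lowest and Gm11808, among the gene copies, lies nearest to 0.

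None of the 4 membrane proteins passed limma (adjusted p = 0.069 to 0.178). Ms4a5, of the membrane-spanning 4A family, was at 621, 476 and 498 FPKM in control and at 277, 426 and 541 FPKM in knockout. The knockout libraries ran from far below to inside the control range. Upk1a, a uroplakin of the urothelial plaque, was at 104, 120.0 and 90.1 FPKM in control and at 70.7, 95.6 and 68.3 FPKM in knockout, where library 2 overlapped the controls.

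Tspan13, a tetraspanin, was at 148, 109.8 and 116 FPKM in control and at 103, 97.2 and 103 FPKM in knockout, with no overlap. Pdzk1ip1, a small membrane protein that binds PDZ-domain scaffolds, was at 117, 99.3 and 99.0 FPKM in control and at 89.9, 89.8 and 81.0 FPKM in knockout. Its groups did not overlap either.

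The 5 nuclear and cytoskeletal genes were 18.9% to 22.5% lower, and none passed limma (adjusted p = 0.058 to 0.164). Tbca, a cofactor that folds beta-tubulin, was at 622, 542 and 702 FPKM in control and at 468, 510.2 and 532 FPKM in knockout, with no overlap. Scand1, a SCAN-domain protein, was at 166, 134 and 156 FPKM in control and at 118, 133 and 102 FPKM in knockout. Its control library 2 and knockout library 2 were less than 1 FPKM apart.

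Polr2k, a small subunit shared by the nuclear RNA polymerases, was at 145, 123 and 194 FPKM in control and at 119, 128 and 124 FPKM in knockout. Control library 2 lay among the knockouts. H2afj, a replication-independent histone H2A, had means of 145 ± 16.6 and 116 ± 13.2 FPKM and no overlap. Supt4a, a subunit of the elongation factor that pauses RNA polymerase II, had means of 130.1 ± 15.1 and 105 ± 6.82 FPKM and overlapping groups.

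The ribosomal group held no ordinary ribosomal protein gene. Of its 4 members, 3 are described here by a protein-coding parent that they match at 100% identity. Gm10275 matched Rpl12 over 634 bases, Rps23-ps1 matched Rps23 over 425 bases, and Tpt1-ps3 matched Tpt1 over 519 bases. These parent genes were not analysed here. The first 60 bases of the Rps23 coding sequence and the matching bases of Rps23-ps1 are shown because they make plain why reads from parent and copy cannot be told apart; no letter is capitalised because none differs.
Rps23: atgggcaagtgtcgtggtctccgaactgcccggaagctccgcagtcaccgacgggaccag
Rps23-ps1: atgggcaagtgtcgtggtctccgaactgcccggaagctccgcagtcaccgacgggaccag

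None of the 4 copies passed limma and all had overlapping groups. Rps23-ps1 was at 154, 147 and 246 FPKM in control and at 136, 160.4 and 136 FPKM in knockout. Its ratio of 0.791 was 0.959 without control library 3. Gm10275 was at 142, 140.2 and 198 FPKM in control and at 116, 146 and 119 FPKM in knockout, with the same high control library. Tpt1-ps3 was at 107, 85.5 and 108 FPKM in control and at 81.0, 84.2 and 86.9 FPKM in knockout.

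Gm11808, coding in GENCODE M21, had the smallest difference of all 182 listed genes lower in knockout. It was at 253, 186 and 239 FPKM in control and at 222, 229 and 185 FPKM in knockout, so the groups covered nearly the same range. Its log2 ratio of means was -0.09, while the next smallest among listed falls was -0.25. The limma difference was -0.09 with an SE of 0.16 (adjusted p = 0.611), and it was 0.01 without knockout library 3.

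The group of long RNAs and Erdr1 had the largest median difference of the 8, 34.7% lower in knockout, and all 3 long RNAs passed limma. Gm37223, a long intergenic RNA (chromosome 1, 184358329 to 184394271), was the second most abundant of the 39 genes. It was at 1808, 1442 and 2184 FPKM in control and at 950.0, 1161 and 1095 FPKM in knockout, with no overlap (log2 difference -0.75, SE 0.18, adjusted p = 0.010). 2410006H16Rik (chromosome 11, 62602877 to 62604807) was at 713, 662 and 717 FPKM in control and at 485, 549 and 466 FPKM in knockout (log2 difference -0.48, SE 0.11, adjusted p = 0.009). Its groups were far apart relative to their spread, and it was the only 1 of the 39 genes called at an adjusted p under 0.01. These predicted genes are named for their values.

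Small nucleolar RNA genes lie within the loci of 2 of these RNAs, and such RNAs guide the chemical modification of ribosomal RNA. 2410006H16Rik spans Snord49a, Snord49b and Snord65 on its own strand. Epb4.1l4aos spans the small nucleolar RNA gene Gm23639. It was at 232, 209.8 and 246 FPKM in control and at 171, 195 and 129 FPKM in knockout, with no overlap (log2 difference -0.49, SE 0.18, limma adjusted p = 0.041). It passed without knockout library 2, and leaving out any other single library ended the call (adjusted p = 0.0507 to 0.105).

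Erdr1 had the lowest ratio, 0.521, and the widest spread. It was at 53.7, 225 and 291 FPKM in control and at 88.6, 34.5 and 174 FPKM in knockout, so control library 1 was below 2 of the knockout libraries. Its ratio was 0.324 without knockout library 3 and 0.709 without control library 3 (limma adjusted p = 0.309 with all libraries). GENCODE M21 gives its identifier the symbol Gm47283 on chromosome Y, and a stretch of 516 of its 887 transcript bases matched Gm21887 at 98.5% identity, so its reads are uncertain too.

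The 39 genes were mostly short. Their principal transcripts had a median of 815 bases (348 to 2733), and 23 of 39 (59.0%) were under 1000 bases, beside 20.1% of all listed genes with a median of 2085 bases. The 11 listed genes higher in knockout with a control mean of at least 100 FPKM were as short, with a median of 743 bases and 7 of 11 (63.6%) under 1000. The 143 other genes lower in knockout had a median of 1892 bases. Short transcripts were thus shared by abundant genes of both directions. The 33 protein-coding members encoded proteins of 58 to 662 residues with a median of 145, beside 368 for all listed coding genes.

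**Figure D4:**
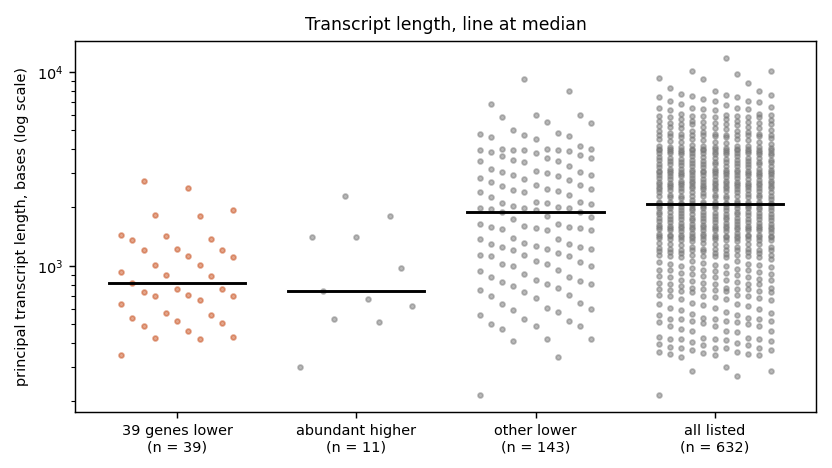
Principal transcript length in bases, on a log axis, for the 39 genes, the 11 abundant genes higher in knockout, the 143 other genes lower in knockout and all 632 listed genes, with a line at each median. Both abundant sets have medians under 1000 bases (815 and 743), and the other sets have medians of 1892 and 2085.

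The members lay on 19 chromosomes, the mitochondrial one included, with at most 6 on any of them. Besides Cbr2 and Dcxr, Fkbp2 and Macrod1 lie near each other on chromosome 19, on opposite strands with 76308 bases between. Of the 39 genes, 10 overlap an annotated gene on the other strand, among them Usmg5 (Taf5), Ndufs6 (Mrpl36), Scand1 (Cnbd2) and Gm37223 (Gm37712). The sources used here do not say whether counting used strand, so these reads cannot be told apart. A further transcript at 95% identity or more over at least 80% of the length exists for 6 members, the 4 copies, Mrpl53 and mt-Nd3. The other 33 genes had a median ratio of 0.781. Some of these have a match of that identity over less of their length, so part of their reads is uncertain too. Besides Erdr1, examples are Polr2k (330 of 489 bases), Ndufs6 (348 of 568), Tbca (325 of 559) and Supt4a (351 of 706).

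The same pathways had few other listed genes. All 5 listed genes of the respiratory chain and ATP synthase are members. Timm13, a chaperone of mitochondrial protein import just under the level floor, was at 86.7 ± 17.5 FPKM in control and 72.2 ± 7.14 in knockout (ratio 0.833, limma adjusted p = 0.223). Besides Rps23-ps1, the ribosomal list held the pseudogenes Rpl19-ps11, at a ratio of 0.812, and Rpl36-ps10, which fell from 22.6 ± 14.1 to 3.70 ± 1.28 FPKM (adjusted p = 0.0079). Of the redox and metallothionein list, Mt3 is a member and the other listed genes went opposite ways. Mgst1 was higher in knockout, at 15.7 ± 2.79 FPKM in control and 26.2 ± 2.75 in knockout (ratio 1.66, limma adjusted p = 0.011). Mgst2 was lower, at 3.36 ± 3.67 and 1.37 ± 1.25 FPKM (ratio 0.406, limma adjusted p = 0.349). Lists of endoplasmic reticulum chaperones and of the proteasome had 0 listed genes. Of the prostate secretory list 8 were listed, 3 higher and 5 lower, and Abo was the 1 member among them. The higher genes were Clu, Cxcl17 and Spink5, with ratios of 6.86, 1.78 and 1.82. Limma called Clu and Cxcl17 higher (adjusted p = 0.0027 and 0.025) and did not call Spink5 (adjusted p = 0.361). The rule left out the other lower genes, Wfdc3, Azgp1, Fgl1 and Sbpl, by name. Wfdc3, Azgp1 and Fgl1 had control means over the floor (458, 395 and 441 FPKM) and ratios of 0.321, 0.738 and 0.771. Limma called each of them lower (adjusted p = 0.0016, 0.030 and 0.026) and did not call Abo (adjusted p = 0.238).

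The floor of 100 FPKM was not a natural boundary. Just inside were Tpt1-ps3, Macrod1 and Upk1a with control means of 100.1, 101 and 105 FPKM. Just outside were Deb1, Oit1 and Gm15500 with control means of 96.2, 95.7 and 95.7 FPKM and knockout means of 70.7, 76.7 and 75.1 FPKM. Their ratios, 0.735, 0.802 and 0.785, were within the range of the members.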

How the data were processed

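Values were taken as FPKM, scaled by the authors for transcript length and library size. The unit was inferred, since the deposited header names none and the submitters' processing notes list TopHat2 2.0.14, Cufflinks 2.2.1, Cuffdiff and GRCm38 without role or order. The table holds 632 genes. Its deposited name labels them as genes differing between groups, and the sources used here do not give the criteria of that selection. Adjustment over genes already selected on a contrast can make adjusted p-values too small. The labels name both a bulk and a droplet single-cell library kit. Depth is unknown: at the best depth ratio, 17 of 109, 21 of 108 and 18 of 108 ratios of values under 1 FPKM between control libraries lay within 1% of a ratio of whole numbers up to 4, so reads were not recovered.

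In R 4.3.3, limma 3.58.1 was fitted, with its trend option, to log2(FPKM + 1) of all 632 genes, with Benjamini-Hochberg adjustment over them. The fit was first checked on simulated data whose genes were not selected on the contrast. That check thus does not cover adjusted p-values in a list selected this way. The pseudocount of 1 understates changes of low genes. Ratios are of group means without it. Positions, types and lengths are from GENCODE M21 (GRCm38), which matched all 632 identifiers; transcripts were compared with BLAST 2.17.0, and 1 match is not reported here. The members, lists and groups were chosen with earlier results of these data known. Values in every library are given for the 5 most abundant members, the 5 largest and 2 smallest differences and up to 4 members per functional group, with predicted genes and some others added after their values were seen.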

Additional observations from a re-analysis of the deposited data

How the results depend on the processing

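The number of genes under the rule was 63 with a floor of 50 FPKM and 18 with a floor of 200, and 35 to 42 with 1 library left out. Their median log2 ratio was -0.36, and -0.50 with knockout values centred on the gap between listed rises and falls, and -0.43 to -0.28 with 1 library left out. limma called 7 members lower, 29 after that centring, 4 among genes with a mean of at least 5 FPKM, 1 at a threshold of 0.01 and 2 to 27 with 1 library left out. With the adjustment widened to the 21951 protein-coding genes of the annotation, or to its 55450 genes of every type, limma called 0, beside 11 at an unadjusted p under 0.05; no other tool was run. Groups did not overlap for 20 members with all libraries, beside 15.7% of all listed genes with every knockout library below every control library. With 1 library left out it was 21 to 32 members, a count that leaving out a library cannot lower. The summed level in knockout over control was 0.782, and 0.732 to 0.833 with 1 library left out. Of single genes, Gm11808 went from -0.2208 to 0.0082 with 1 library left out, the last without knockout replicate 3, which reversed its direction. The cause of these shifts was not tested. No paired analysis was possible because the labels give the groups no shared replicate numbers. The number of libraries and the unknown depth limit what differences of this size can show.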
